A study of Mus musculus with 4 samples.

Results

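Protein kinase C is a family of serine and threonine kinases, and the 9 genes described here are Prkca, Prkcb, Prkcd, Prkce, Prkch, Prkci, Prkcq, Prkcz and the related protein kinase D gene Prkd1. They were followed in stem cells sorted from the bulge of the mouse hair follicle, where the follicle keeps its resting stem cells. Members were found by symbol, as every row of the array table that the platform's annotation gives to 1 of these genes alone. That rule gave 11 of 28815 rows, since Prkch and Prkcz have 2 rows each and the other genes 1. The family was chosen by earlier results of these same arrays, the CSA and vehicle values of Prkca among them, so the differences between the groups are a description and no test of the family.

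The mice were males of the CD-1 strain, 56 days old and in their second telogen, when the hair follicle rests. Mice of one group were given CSA, 100 mg/kg into the peritoneum over 3 days, and those of the other were given vehicle by the same route. CSA is not spelled out in the labels. In this field it stands for cyclosporine A, an inhibitor of the phosphatase calcineurin, and the series title names calcineurin and Nfatc1 signalling. Sorting took the cells positive for CD34 and alpha6 integrin together, and RNA of 2 biological replicates per group was read on 4 one-colour arrays. The labels name no transgene and give no number of mice behind a sample.

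Each value is a log2 value relative to a baseline that the authors set for each row, whose definition no source used here gives. A value of 0 is therefore that baseline and not absence of RNA, and the level of one gene cannot be set against that of another. The log base was taken as 2. Array medians over all rows were between -0.02 and 0.06. Cd34, a marker of the sort, read 1.75 and 3.60 with CSA against 4.05 and 4.25 with vehicle. Itga6, which encodes alpha6 integrin, read -0.70 and -0.53 with CSA against -1.00 and 0.08 with vehicle. Of the 10 bulge markers 8 were lower in CSA (median difference -0.33, and -0.03 without CSA replicate 1), as were 12635 of the 21780 rows that name 1 gene. Beside Cd34 the lower markers included Cd200, a surface glycoprotein, at -0.80 ± 0.35 and Postn, a matrix protein, at -0.79 ± 0.18. Here and below ± gives the moderated standard error of limma over 2 arrays a group. Krt15 differed by -0.06 ± 0.18 and Lgr5 by -0.40 ± 0.89. Tcf7l1 (0.34 ± 0.33) and Nfatc1 (0.09 ± 0.40) were higher in CSA. Fewer cells of a type and less RNA per cell cannot be told apart in such samples.

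Isoforms of protein kinase C differ in what switches them on. Hormone and growth factor receptors activate phospholipase C, which splits a membrane lipid into diacylglycerol and inositol trisphosphate (IP3), and IP3 releases calcium from the endoplasmic reticulum. Conventional isoforms (alpha and beta here) need both diacylglycerol and calcium, calcium-independent isoforms (delta, epsilon, eta and theta) need diacylglycerol alone, and atypical isoforms (iota and zeta) need neither and work with the cell polarity proteins. In skin the family is known as the target of tumour-promoting phorbol esters, which take the place of diacylglycerol, and isoform eta is known for its place in differentiating keratinocytes. Calcineurin removes phosphates in response to the same calcium signal.

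The 9 genes did not go one way in CSA. Of the 11 rows 6 had a higher mean in CSA and 5 a lower one. Of the 21780 rows that name 1 gene 9145 were higher and 12635 lower. The median difference over those rows was -0.04, and over the member rows it was 0.12. The 0.12 is the difference of the second Prkcz row, which is uncertain as a measure of Prkcz, as described below. The median over the member rows was -0.03 without CSA replicate 2 and -0.06 without the second rows of Prkch and Prkcz, so its sign was not stable. Prkca was higher on both CSA arrays, the main row of Prkch was lower on both, and a second Prkch row was higher on both. The remaining 8 rows differed by between -0.31 and 0.26, all within the 5th to 95th percentile of the differences over all rows (-0.47 to 0.67). limma called 0 of the 11 rows at an adjusted p under 0.05 and 0.0% of all rows, with a smallest adjusted p of 0.999. Its unadjusted p was under 0.05 for 2 of the 11 rows (Prkca and the main Prkch row) and for 2.97% of all rows. Nothing is read from that count either, because values of Prkca were known when the family was chosen. An exact permutation test of 2 arrays against 2 cannot go below a two-sided p of 0.333.

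Groups stood at least 1.5-fold apart without overlap in 3 of the 11 rows, 2 higher and 1 lower in CSA. Over all rows the share was 6.28%, with 4.16% higher and 2.11% lower. Without regard to size, the groups did not overlap in 4 of the 11 rows, and in 26.5% of all rows. Nothing is read from these counts, because the family was chosen with this contrast known.

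**Figure D1:**
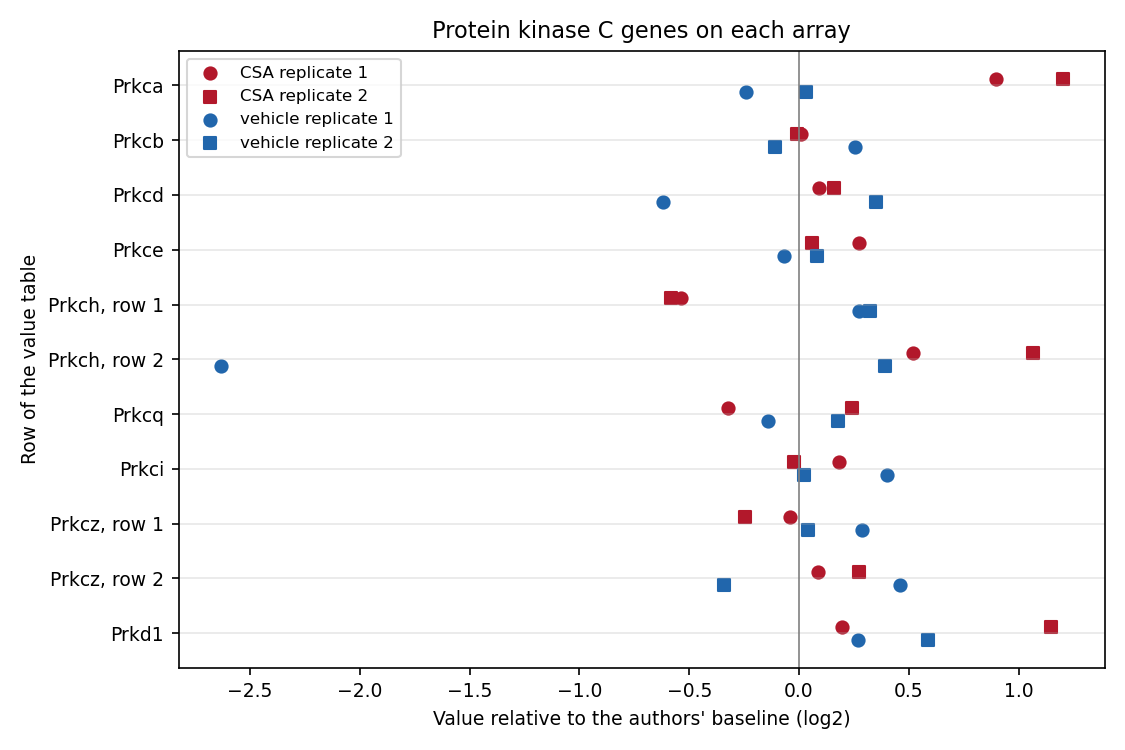
Value of each of the 11 rows on each array, on the log2 scale relative to the authors' baseline; red marks CSA, blue marks vehicle, circles replicate 1 and squares replicate 2. Both CSA points of Prkca lie at 0.90 or above and both vehicle points at 0.03 or below, the first Prkch row shows the reverse order with tight pairs, and a single vehicle point at -2.63 sets the second Prkch row apart.

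Prkca encodes the alpha isoform, the conventional kinase found in most tissues. Its row read 0.90 and 1.20 with CSA against -0.24 and 0.03 with vehicle. Both CSA arrays lay well above both vehicle arrays, and the arrays within a group were 0.30 and 0.28 apart. CSA minus vehicle was 1.15 ± 0.21 on the log2 scale, or 2.23-fold if the base is 2. With each array left out in turn it ranged from 1.00 to 1.31.

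Prkcb, the other conventional gene measured, encodes the beta isoform known from B cells and other blood cells. It read 0.01 and -0.01 with CSA against 0.25 and -0.11 with vehicle, so that the CSA arrays lay between the vehicle arrays. The difference was -0.07 ± 0.20, and it was 0.11 without vehicle replicate 1.

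The upstream stretches of this pair are shown because the conventional genes Prkca and Prkcb differed in their values. The sequences are RefSeq's, build GRCm38.p6, on the gene's strand, and end at the base before the annotated gene; capitals mark GGGCGG on either strand, the GC box that factors of the Sp family bind.
Prkca, minus strand of chr11:108343889-108344138: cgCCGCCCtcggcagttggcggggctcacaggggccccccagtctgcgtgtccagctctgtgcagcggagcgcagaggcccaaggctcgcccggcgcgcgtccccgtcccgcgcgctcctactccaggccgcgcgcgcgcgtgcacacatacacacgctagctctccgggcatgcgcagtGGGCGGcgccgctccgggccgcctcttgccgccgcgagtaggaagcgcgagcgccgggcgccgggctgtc
Prkcb, plus strand of chr7:122288875-122289103: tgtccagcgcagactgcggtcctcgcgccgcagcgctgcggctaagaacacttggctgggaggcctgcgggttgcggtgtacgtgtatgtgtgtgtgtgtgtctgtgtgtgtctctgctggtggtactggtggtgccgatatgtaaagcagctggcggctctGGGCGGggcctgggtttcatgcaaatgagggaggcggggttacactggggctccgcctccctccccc
In windows of 250 bases before the start, Prkca held the GC box at 2 places and Prkcb at 1, and 32.7% of the 32851 windows of all genes held it. Of the 10 windows that the table has for 7 of the 9 members, 8 held the box. Prkcd and Prkcz have more than 1 window each. Some of their windows, and that of Prkcq, lay wholly inside the annotated gene. GGAAA, the core of the sites that NFAT factors bind, was searched on both strands. It was in 3 of the 10 windows, those of Prkd1 and of 2 starts of Prkcz, and in 55.6% of all windows. TGANTCA, the element through which phorbol ester acts by AP-1, was in 0 of the 10 and in 6.75% of all. The windows of Prkca and Prkcb were 76.8% and 65.2% G and C, against a median of 52.4% over all windows. Over the 10 member windows the share of G and C ran from 50.8% to 76.8%. Prkce and Prkch had no entry.

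Prkch encodes the eta isoform, of the calcium-independent class. Its main row, 10396402, which is annotated with the gene's RefSeq transcript, read -0.54 and -0.58 with CSA against 0.27 and 0.32 with vehicle. The arrays of a group lay 0.044 apart in CSA and 0.050 apart in vehicle, against median gaps over all rows of 0.23 and 0.27. CSA was lower by -0.86 ± 0.15, and leaving out an array gave between -0.88 and -0.83.

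The second Prkch row, 10396419, is annotated with a single cDNA clone and follows the main row directly in the order of identifiers. It read 0.52 and 1.07 with CSA against -2.63 and 0.39 with vehicle. Its difference of 1.92 ± 1.09 was opposite in sign to that of the main row and became 0.40 once vehicle replicate 1 was left out and 3.43 once vehicle replicate 2 was. The vehicle arrays lay 3.03 apart, a gap that 22 of the 21780 rows reached or passed. The rows of this gene therefore disagree, by 2.77 on the log2 scale, and the table does not say which part of the transcript each one reads.

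Markers of differentiated epidermis, where Prkch is known to be active, were set beside it. Of the 9 marker rows 8 were lower in CSA, as were 12635 of all 21780 rows. By 1.5-fold without overlap 4 of the 9 were lower, as were 2.11% of all rows. Krt10, a keratin of the layers above the basal one, read -1.35 and -0.90 with CSA against 0.38 and -0.58 with vehicle. Ivl, which encodes involucrin of the cornified envelope, read -1.16 and -0.67 with CSA against 0.12 and -0.32 with vehicle. Krt1, of the same layers, read -2.72 and -2.31 with CSA against 0.10 and -2.15 with vehicle (-1.49 ± 0.82). Flg2, also of these layers, read -0.90 and -0.11 with CSA against 2.43 and 0.11 with vehicle (-1.77 ± 0.87). The list's median per array was -1.06 and -0.67 with CSA against 0.47 and -0.40 with vehicle. Its median difference was -0.77, with -0.19 without vehicle replicate 1 and -1.50 without vehicle replicate 2. Without CSA replicate 1 it was -0.67 and without CSA replicate 2 -0.86. The main Prkch row gave -0.88, -0.83, -0.88 and -0.83 in the same order of arrays left out. The part of differentiated cells in the Prkch values was not tested.

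Prkcd encodes the delta isoform, which is known for a part in keratinocyte death and differentiation. It read 0.09 and 0.16 with CSA against -0.62 and 0.35 with vehicle. The vehicle arrays lay on either side of CSA. CSA minus vehicle, 0.26 ± 0.37, became -0.22 once vehicle replicate 1 was left out and 0.74 once vehicle replicate 2 was.

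Prkce encodes the epsilon isoform, known from mouse skin for raising sensitivity to carcinogens when overexpressed. It read 0.27 and 0.06 with CSA against -0.07 and 0.08 with vehicle, with overlapping groups and a difference of 0.16 ± 0.18. Prkcq encodes the theta isoform, which works below the T cell receptor. It read -0.32 and 0.24 with CSA against -0.14 and 0.18 with vehicle. The arrays numbered 1 were the low ones in both groups, and the difference was -0.06 ± 0.27, with 0.22 without CSA replicate 1 and -0.34 without CSA replicate 2.

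Prkci encodes the iota isoform, the atypical kinase of the apical polarity complex. It read 0.18 and -0.02 with CSA against 0.40 and 0.02 with vehicle, and the groups overlapped (-0.13 ± 0.21). Prkcz encodes the zeta isoform. Its first row, 10519117, read -0.04 and -0.25 with CSA against 0.29 and 0.04 with vehicle. That is the fourth row without overlap, with CSA lower by -0.31 ± 0.19, which is below 1.5-fold, and by -0.43 to -0.18 with arrays left out.

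The other Prkcz row, 10561335, read 0.09 and 0.27 with CSA against 0.46 and -0.34 with vehicle, with overlapping groups and a difference of 0.12 ± 0.33. In the order of identifiers it lies between rows of Map3k10 and Zfp974, genes of chromosome 7, while Prkcz is on chromosome 4 and its first row lies between rows of Ski and Gabrd of that chromosome. RefSeq places a pseudogene named Prkcz2 on chromosome 7, directly before Zfp974. Whether this row reads Prkcz, the pseudogene or both was not tested, so its value is uncertain as a measure of Prkcz.

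Prkd1, protein kinase D1, binds diacylglycerol and is activated by the calcium-independent isoforms of protein kinase C. It read 0.20 and 1.15 with CSA against 0.27 and 0.59 with vehicle. CSA replicate 2 was the highest of the 4 arrays and CSA replicate 1 the lowest. CSA minus vehicle, 0.24 ± 0.38, became 0.72 once CSA replicate 1 was left out and -0.23 once CSA replicate 2 was. Among the kinases closest to the members, Prkd2 differed by -0.09 ± 0.19, Prkd3 by 0.05 ± 0.24, Pkn2 by 0.33 ± 0.37 and Pkn3 by -0.35 ± 0.26, and the groups overlapped in each.

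**Figure D2:**
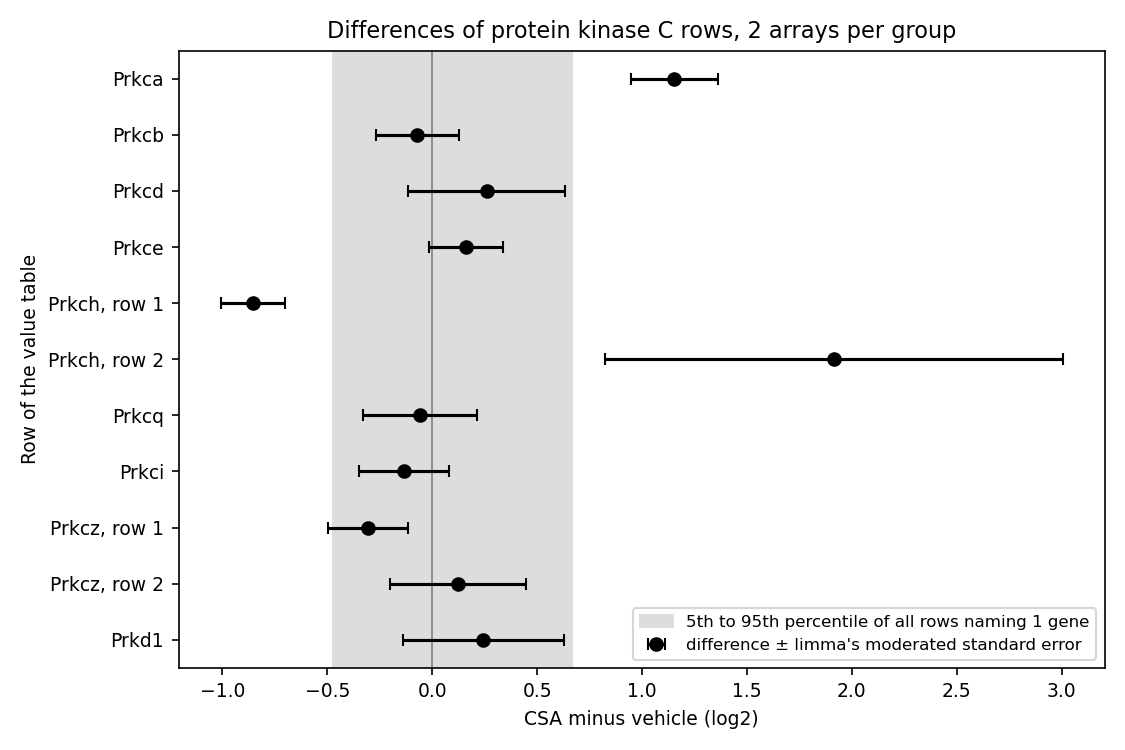
CSA minus vehicle for each of the 11 rows on the log2 scale, with limma's moderated standard error as bars; the grey band holds the 5th to 95th percentile of the differences over all rows that name 1 gene. Prkca at 1.15 and the second Prkch row at 1.92 lie above the band, the first Prkch row at -0.86 below it, and the other 8 rows inside it.

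**Figure D3:**
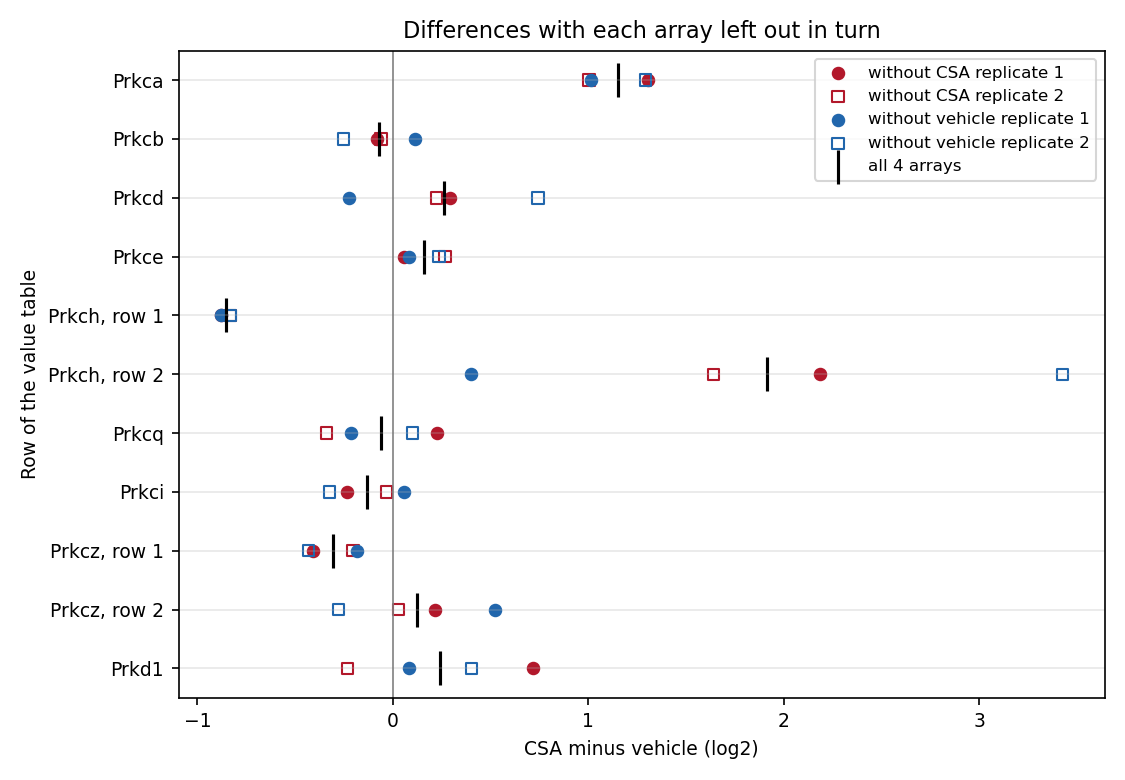
CSA minus vehicle on the log2 scale with all 4 arrays (black bars) and with each array left out in turn (coloured symbols). The symbols of Prkca stay between 1.00 and 1.31 and those of the first Prkch row between -0.88 and -0.83, while the second Prkch row spreads from 0.40 to 3.43 and the symbols of 6 rows (Prkcb, Prkcd, Prkcq, Prkci, the second Prkcz row and Prkd1) fall on both sides of 0.

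Of the members, the main Prkch row had the largest absolute moderated t, and the genes with the nearest values were taken by Euclidean distance over the 4 arrays. They were Per3, a gene of the circadian clock, at a distance of 0.22, Frem2, a matrix protein of the epidermal basement membrane, at 0.24, and Sars2, a mitochondrial tRNA synthetase gene, at 0.25. Ccdc180 followed at 0.26 and Ncapg, a condensin subunit gene, at 0.28. Such a ranking over 4 arrays is a description of these values.

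Genes that make, remove or read diacylglycerol were measured beside the kinases. Over the 9 lists around the pathway 105 of 117 gene names had a row, 122 rows in all. Of these 57 were higher and 65 lower in CSA, beside 9145 higher and 12635 lower over all 21780 rows. limma called 0 of the 122 at an adjusted p under 0.05, and 4 (Dgat2, Itpr3, Gja1 and Ptgs2) had an unadjusted p under 0.05. Groups were 1.5-fold apart without overlap in 4 rows higher and 4 rows lower in CSA, and the shares over all rows were those given above.

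Phospholipase C genes, which produce diacylglycerol and IP3, were lower in CSA in 11 of 12 rows, beside 12635 of all 21780 rows. Of these genes' rows 0 of the 12 reached 1.5-fold without overlap, beside 6.28% of all rows. Their median difference was -0.14, and -0.04 without CSA replicate 2. Plcg1, the enzyme that receptor tyrosine kinases use, read 0.07 and -0.28 with CSA against 0.02 and 0.25 with vehicle (-0.24 ± 0.21). Plcb3, which G proteins activate, differed by -0.18 ± 0.18, and Plcd1, known for its need in hair formation, was the member with a higher mean, by 0.15 ± 0.16.

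Genes that remove diacylglycerol, by phosphorylation or acylation, went both ways, 5 rows higher and 6 lower. Dgat2, an enzyme of triglyceride synthesis, read -0.50 and -0.49 with CSA against -0.01 and 0.05 with vehicle (-0.52 ± 0.15). Dgat1, which catalyses the same step, differed by 0.28 ± 0.18, and the rows of the kinase gene Dgkz by -0.22 ± 0.24 and -0.13 ± 0.15.

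On the calcium side 3 rows were higher and 5 lower. Itpr3, an IP3 receptor, read 0.10 and -0.10 with CSA against 0.63 and 0.55 with vehicle (-0.59 ± 0.17). Both CSA arrays were below both vehicle arrays, and the vehicle arrays were 0.08 apart. Itpr2 differed by -0.39 ± 0.28 and the calcium channel gene Orai1 by 0.22 ± 0.15.

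Among other proteins that bind diacylglycerol, 8 rows were higher and 10 lower. Rasgrp1, an activator of Ras that phorbol ester switches on, read 0.20 and -0.20 with CSA against -1.33 and -0.53 with vehicle (0.93 ± 0.35). Its lowest value was that of vehicle replicate 1. The rows of Unc13a and Unc13c, which prime vesicles for release, went both ways, the 3 of Unc13a from -0.23 to 0.22 and the 7 of Unc13c from -0.25 to 0.11.

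Scaffolds and polarity partners were higher in CSA in 11 of 15 rows, beside 9145 of all 21780 rows. Their median difference was 0.10, and -0.003 without CSA replicate 1. Pard6g, a partner of atypical isoforms, read 0.67 and -0.04 with CSA against -0.84 and -0.28 with vehicle (0.88 ± 0.35). Pard3b, a relative of the polarity gene Pard3, read 1.20 and 0.30 with CSA against -0.27 and 0.01 with vehicle (0.88 ± 0.36). Its other row read 1.09 and 0.02 with CSA against 0.12 and -0.02 with vehicle (0.51 ± 0.41), with overlapping groups. Akap5, an anchor for protein kinase C, protein kinase A and calcineurin, read 1.10 and 0.05 with CSA against -0.06 and -0.01 with vehicle (0.61 ± 0.40). In all 3 genes CSA replicate 1 was the highest array. For Pard3b and Akap5, CSA replicate 2 lay nearer to both vehicle arrays than to CSA replicate 1. For Pard6g it lay nearer to vehicle replicate 2 than to CSA replicate 1, but not nearer to vehicle replicate 1.

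Genes for maturation and dephosphorylation of the kinases were higher in 8 of 11 rows, beside 9145 of all 21780 rows. Their median difference was 0.04, but -0.12 without CSA replicate 1 and -0.10 without vehicle replicate 1. Of the 11 rows 0 reached 1.5-fold without overlap, beside 6.28% of all rows. Pdpk1, the kinase that phosphorylates newly made protein kinase C, read -0.04 and 0.04 with CSA against -0.96 and 0.06 with vehicle (0.45 ± 0.39). Rictor and Mlst8, subunits of the mTOR complex that stabilises the kinases, differed by 0.51 ± 0.57 and 0.35 ± 0.37.

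Substrates and downstream complexes were split, 9 rows higher and 10 lower. Gja1, which encodes the gap junction protein connexin 43, read -0.84 and -0.70 with CSA against -0.08 and 0.08 with vehicle (-0.77 ± 0.17). Its arrays were close within both groups. Add3, an adducin of the membrane skeleton, differed by 0.42 ± 0.16, and Ppp1r14c, an inhibitor of protein phosphatase 1, by -0.36 ± 0.22.

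Genes that phorbol ester is known to raise in skin had 10 rows higher and 14 lower in CSA, with a median difference of -0.02 that was 0.01 with arrays centred on their medians. Ptgs2, which encodes cyclooxygenase 2, read -1.40 and -0.74 with CSA against -0.10 and 0.10 with vehicle (-1.07 ± 0.28). Dusp6, a phosphatase of ERK kinases, read -0.87 and -0.28 with CSA against 0.36 and -0.09 with vehicle (-0.71 ± 0.30). The cytokine gene Il1a differed by -0.38 ± 0.18.

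**Figure D4:**
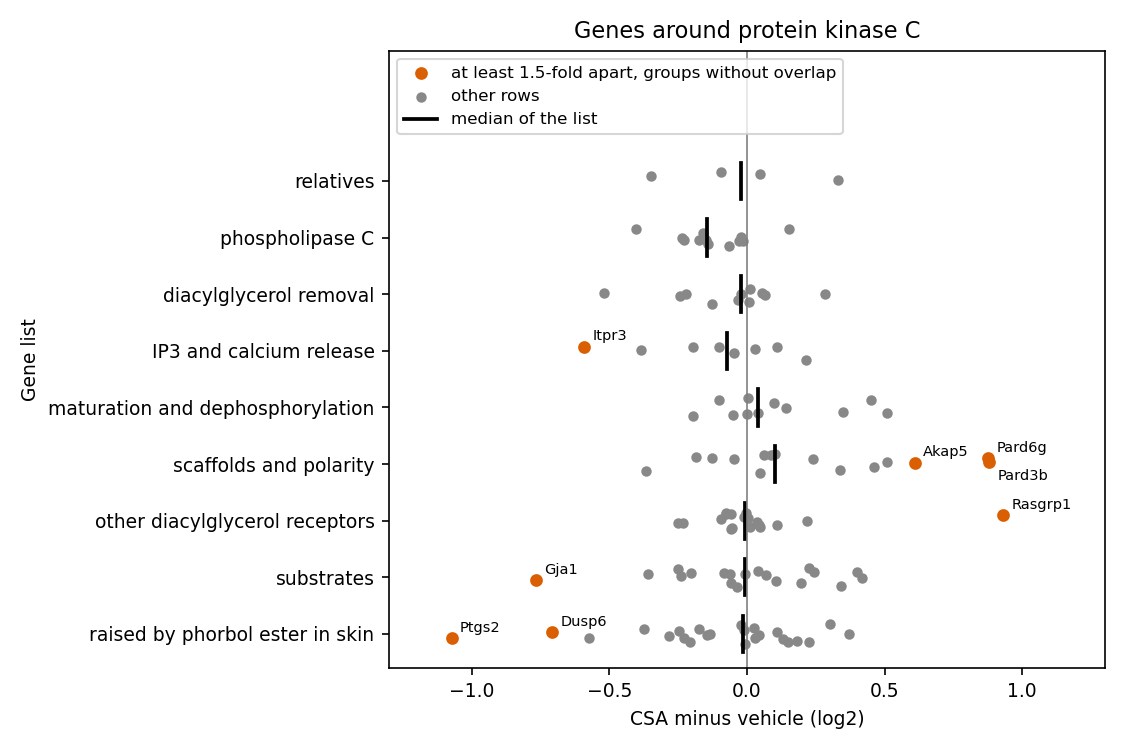
CSA minus vehicle on the log2 scale for each row of the 9 gene lists around protein kinase C; black bars are list medians, and orange points are the 8 rows at least 1.5-fold apart without overlap. The medians lie between -0.14 (phospholipase C) and 0.10 (scaffolds and polarity), and the orange points are named.

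Blood cell markers were set beside Prkcb and Prkcq, isoforms known from lymphocytes. Of 8 T cell rows 4 were higher and 4 lower (median -0.04, which quantile normalization turned to 0.02). Cd3g, a chain of the T cell receptor complex, read 0.55 and 0.14 with CSA against -0.69 and -0.20 with vehicle (0.79 ± 0.27). Cd2 and Cd4, surface proteins of T cells, went the other way, at -0.59 ± 0.42 and -0.29 ± 0.24. Of 9 rows of B and myeloid cells 7 were lower (median -0.12, and 0.01 without vehicle replicate 1), and of 6 mast cell rows 5 (median -0.03, turned to 0.02 by quantile normalization). Among 6 rows each, 6 endothelial (median -0.14), 6 fibroblast (-0.10) and 4 melanocyte markers (-0.02, and 0.01 with arrays centred on their medians) were lower. Over all 21780 rows that name 1 gene 12635 were lower. Vehicle replicate 1 had the highest list median in all of these lists. Its median over all those rows was also the highest, at 0.06 against -0.02 for vehicle replicate 2 and 0.01 and -0.02 for CSA. Prkcb, Prkci and both Prkcz rows had their highest value on vehicle replicate 1. Prkcq did not, with -0.14 there against 0.18 on vehicle replicate 2 and 0.24 on CSA replicate 2. The part of such cells in the members' values was not tested.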

How the data were processed

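Per the labels' protocols, 20 ng of RNA of sorted bulge cells was amplified in 1 round into biotin-labelled cDNA for 4 one-colour arrays. The values, taken as log2, are those the authors deposited, 28815 rows centred on a baseline per row. Only the build mm8 is named in the submitters' processing notes. Log base, background correction and normalization are not stated there. The platform annotation named 1 gene for 21780 rows and several for 1605; 5430 rows were not listed. All 11 member rows matched RefSeq by gene identifier.

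CSA was compared with vehicle by limma 3.58.1 (R 4.3.3; lmFit, eBayes without trend, two-sided, no block or filter) over the 21780 rows, with Benjamini-Hochberg adjustment over all of them and a threshold of 0.05. The code was tested on simulated data. The number of arrays limits the precision. Replicates are biological per the series design text.

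Members, gene lists and rules were chosen with earlier results of these data known. Named were all member rows, list genes at least 1.5-fold apart without overlap, up to 3 genes per list with the largest absolute moderated t, Cd34, Itga6, and the 5 nearest genes to the member row with the largest t, leaving out predicted and clone names. Prkd3, Krt15, Lgr5, Tcf7l1 and Nfatc1 fall outside these rules and were named after their values were seen.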

Additional observations from a re-analysis of the deposited data

How the results depend on the processing

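limma called 0 member rows at an adjusted p under 0.05 in each alternative run: quantile normalization, arrays centred on medians, a filter on the mean, all rows of the table, 1 row per gene, a variance trend, the replicate block and each array left out. With 1 array left in a group, that array is assumed to vary like the others. The count of member rows 1.5-fold apart without overlap was 3. It was 1 when rows under the 25th percentile of the mean were dropped, which left out both Prkch rows. That mean is relative to the authors' baseline and does not track RNA level, so a dropped row is not thereby weakly expressed. The median over members, 0.12, ranged from -0.032 (without CSA replicate 2) to 0.22 (without CSA replicate 1). It was -0.058 without the second Prkch and Prkcz rows, an alternative chosen after seeing the data, so the sign of the family's median rests on those choices. The count of pathway rows, 8, was 3 under the filter, 1 at 2-fold and 10 to 28 with arrays left out, with 28 without CSA replicate 2 and 17 without vehicle replicate 2; 1 array against 2 overlaps less often. Single member rows turned direction only with arrays left out, giving ranges of -0.25 to 0.11 for Prkcb, -0.22 to 0.74 for Prkcd and -0.32 to 0.056 for Prkci (vehicle replicates 2 and 1), -0.34 to 0.22 for Prkcq (CSA replicates 2 and 1; 0.10 without vehicle replicate 2), -0.28 to 0.52 for the second Prkcz row (vehicle replicates 2 and 1) and -0.23 to 0.72 for Prkd1 (CSA replicates 2 and 1). List medians near 0 turned sign more readily: those of T cells and mast cells under quantile normalization, those of melanocytes, phorbol ester genes, relatives and diacylglycerol removal with arrays centred on medians, and those of substrates and other diacylglycerol receptors under both. Same-numbered arrays deviated together with a correlation of 0.22 over rows, but the labels do not say that the number pairs them; with the replicate block the median stayed at 0.12 and 0 member rows were called.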

Other observations

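In 3 of the 11 member rows 2 arrays mirrored each other around 0 (their sum within 2e-06 of 0), as in 18.2% of all rows that name 1 gene. These were both CSA arrays for Prkcb, CSA replicate 2 and vehicle replicate 2 for Prkci, and CSA replicate 1 and vehicle replicate 2 for the first Prkcz row. The highest of the 4 values fell on CSA replicate 2 in 4 member rows and on vehicle replicate 1 in 4, and the lowest fell on vehicle replicate 1 in 4.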
